A study of Drosophila melanogaster with 9 samples.

Results

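The peaks described here are those of FLAG-tagged Pita and of CP190 in Drosophila melanogaster embryos of the Pita wt line. FLAG gave 6901 peaks and CP190 gave 6586, together 13487 of the 29281 peaks in the 4 peak lists of the series. A peak was represented by a window of 250 bp on each side of its summit, the base of highest enrichment, and was called co-occupied where its window shared at least 1 bp with a window of the other antibody. The embryos carried a transgene that expresses Pita wt fused with 3xFLAG from the ubiquitously active Ubi-p63E promoter, inserted at 86Fb on the third chromosome. The study crossed the transgenes into a background of strong hypomorphic pita mutations (pita02132/pitak05606) that gives no detectable pita mRNA of its own, but does not state outright that the embryos used for ChIP-seq had this background. The strain is labelled Oregon-R and whole embryos were used, collected at 0 to 12 h after egg-laying according to the series description, while the methods of the study give a later interval. Each antibody has 2 biological replicates in the labels, and 1 preimmune sample of the same line was the control for both antibodies. FLAG reports the transgenic protein in all cells that use the promoter, not Pita made from its own gene, and the embryos are a mixture of cell types that cannot be separated here.

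Pita is a DNA-binding protein with a zinc-finger-associated domain (ZAD) and a row of C2H2 zinc fingers, and belongs to the architectural proteins that bind insulators and domain boundaries, among them those of the Bithorax complex. CP190 carries a BTB domain through which it forms dimers, is not thought to find its sites by sequence alone, and is recruited to insulators and promoters by architectural proteins, Pita being one of them. Comparing both antibodies in one line asks where on the chromosomes tagged Pita and CP190 are found together and where one is found without the other.

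The Pita binding motif spans 21 bases, and some close matches under peaks are printed as examples. They are not typical of the compared peaks. At the main match threshold given below, 11.9% of all FLAG windows and 13.8% of all CP190 windows on the assembled arms had a match. The sequences are those of the RefSeq assembly Release 6 plus ISO1 MT, the same coordinates as dm6, read 5′ to 3′ in the direction of the motif, with the 21 matched bases in capitals and the flanking bases in lower case. The first 5 matches lie under strong peaks of both antibodies, near the starts of Atg8a (chrX:10768410-10768439, minus strand), Tlk (chrX:3719858-3719887, minus strand), cib (chrX:4105859-4105888, minus strand), MCU (chr3L:6550192-6550221, plus strand) and ATPsynC (chr3R:31219691-31219720, minus strand). The next 2 lie under FLAG-only peaks, in the 3′ untranslated region of Tmhs (chr3L:1891078-1891107, plus strand) and in an intron of CG32982 with CG13108 as the nearest start (chr2L:9158488-9158517, plus strand). The last 2 lie under CP190-only peaks in intergenic DNA near the starts of lobo (chr3R:25193956-25193985, minus strand) and CG6693 (chr3R:11221689-11221718, minus strand). All 9 have one common letter at each of columns 5, 6, 13, 18, 19 and 20 of the match, counted from its 5′ end. Each is the word of its window that scores best against the motif, and that score favours these letters. Among single-antibody matches not printed, that near CG16964 has A at column 13 and that near CG10011 has T at column 18.
Atg8a: taacATTTAGCGAATACATGAACCAaatgg
Tlk: tgttACTTAGCGTGTGCACCAACCAtagtt
cib: attcATTTAGCAGAGACACGAACCAcatct
MCU: gactAAACAGTCGAGACACGAACCTaaaca
ATPsynC: aaatGTGTAGCCAGGACTTGCACCGtggat
Tmhs: attcAAACAGCCAGGACGCCAACCAattaa
CG13108: ttgtGTGTAGCCAAGACGCGAACCTggtat
lobo: ggttATTTAGCCCAGACGCAAACCAgaatc
CG6693: tactTTTTAGTTGGGACACCAACCAtgcaa

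Tagged Pita and CP190 shared about 2 in 3 of their peaks. Of the FLAG peaks, 4502 were co-occupied, which is 65.2% (95% Wilson interval 64.1 to 66.4%), and 2399 were FLAG-only. Of the CP190 peaks, 4489 were co-occupied, which is 68.2% (interval 67.0 to 69.3%), and 2097 were CP190-only. The counts differ because 14 co-occupied FLAG peaks and 27 co-occupied CP190 peaks had more than 1 partner, and 4481 pairs were each other's nearest summit. The peak calls of both antibodies used one common preimmune control, so that the overlap includes whatever that control gives to both. The replicates are pooled in the lists, and no spread between replicates at single peaks, nor a test of any difference, could be had from them. The study's supplement gives summary ratios of replicate reproducibility for both lists, which were not used here. One of these, the self-consistency ratio, is above the limit named in the methods for both Pita wt lists. It is below that limit for both mutant lists. The methods state that all samples were under the limit. Intervals cover counting error over peaks, which are not independent.

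A single-antibody peak usually had no summit of the other antibody within 1000 bp. The distances were not set against those of randomly placed peaks, so they do not show whether the lists lie near or far from each other. The median distance to the nearest summit of the other list was 4498.5 bp for FLAG-only peaks and 3987 bp for CP190-only peaks. A summit of the other antibody lay 10 kb or more away for 27.2% of the FLAG-only peaks and 24.2% of the CP190-only peaks. Near misses were the smaller part. Within 1000 bp there was a summit of the other antibody for 329 FLAG-only peaks (13.7%) and 273 CP190-only peaks (13%). At the edge of the rule, the widest co-occupied pair was 499 bp apart, and the closest summit outside it was 500 bp away for FLAG and 501 bp for CP190. By the deposited peak boundaries, 203 FLAG-only and 158 CP190-only peaks touched a peak of the other list. A single-antibody peak is one without a partner in the other deposited list, which holds only peaks that passed the authors' reproducibility threshold.

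Stronger peaks were more often shared with the full list of the other antibody. Fold enrichment, the authors' ratio of a peak over the preimmune sample, was used to order peaks within each list. In the strongest 10% of the FLAG list 593 of 691 peaks were co-occupied (85.8%), against 288 of 690 in the weakest 10% (41.7%). In the CP190 list the strongest 10% had 560 of 659 (85.0%) and the next 10% had 582 of 659 (88.3%), against 289 of 658 in the weakest (43.9%). Among the 1000 strongest peaks the share did not rise further with strength. At ranks 1 to 100, 101 to 500 and 501 to 1000 it was 83, 85.75 and 86.6% for FLAG, and 81, 82.75 and 89.4% for CP190. These shares count partners of any strength. When both lists were cut to their 1000 strongest peaks, 55.9% of each were co-occupied. Median fold enrichment was 2.21 in co-occupied and 2.02 in FLAG-only peaks of the FLAG list, and 2.15 in co-occupied and 1.96 in CP190-only peaks of the CP190 list. Most peaks of either list were therefore weak, and a small tail was strong. The largest fold enrichment was 12.3 for a co-occupied and 6.58 for a FLAG-only peak with FLAG, and 49.4 for a co-occupied and 9.63 for a CP190-only peak with CP190.

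**Figure D1:**
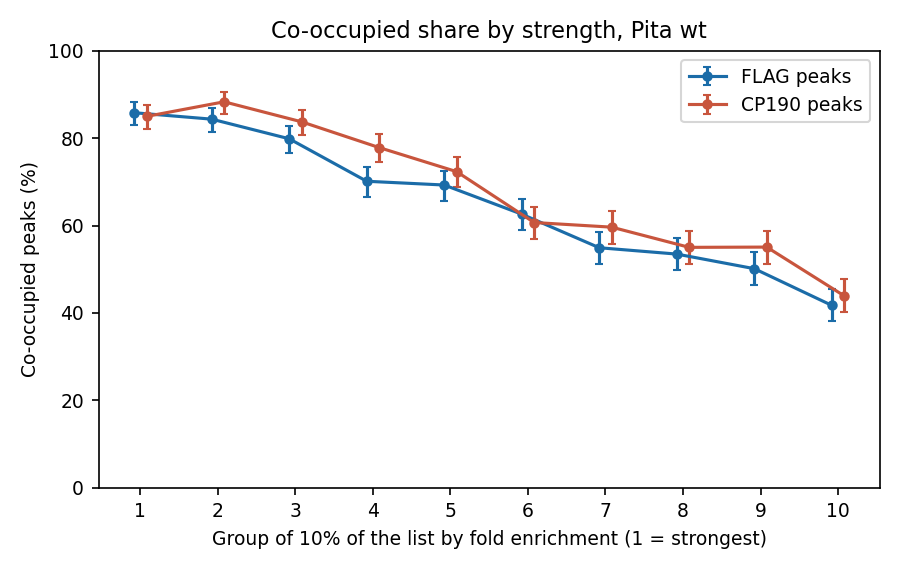
Share of co-occupied peaks (y axis, %) in 10 equal groups of the FLAG and CP190 lists, ordered from the strongest fold enrichment (1) to the weakest (10). Points are shares and bars are 95% Wilson intervals; the FLAG share is 85.8% in group 1 and 41.7% in group 10, and the CP190 share is 85.0% in group 1, 88.3% in group 2 and 43.9% in group 10.

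In co-occupied pairs the summits of both antibodies nearly coincided. The FLAG summit was a median of 25 bp from the nearest CP190 summit (quartiles 9.25 and 56 bp), and in 161 of 4502 pairs both lay on the same base. Within 25 bp lay 50.8% of pairs, within 100 bp 87.5% and within 250 bp 94.9%. Each list also gives the summit in the 2 peak sets that the authors' reproducibility step compared for each peak, which allows the distance within an antibody to be set beside that between antibodies. The same pairs had a median of 32 bp between the FLAG summits of the compared sets and 36 bp between the CP190 summits. A FLAG summit of one compared set and a CP190 summit of one compared set lay a median of 34 to 36 bp apart in the 4 combinations. This is the like comparison, since the 25 bp is between summits of the pooled peaks. The distance between antibodies was thus close to that between summits of one antibody. Which sets were compared, replicates or random splits of the pooled reads, is not given for the lists.

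**Figure D2:**
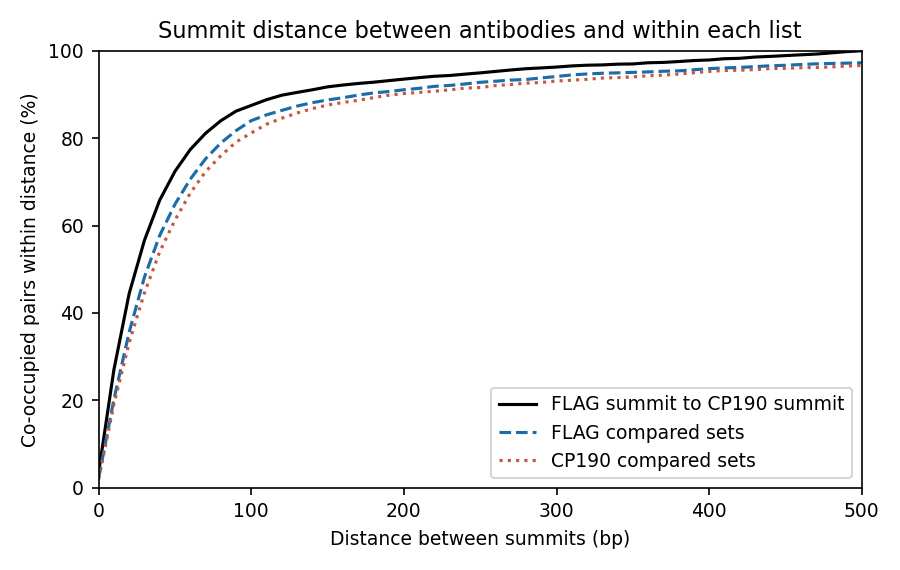
Cumulative share (y axis, %) of the 4502 co-occupied pairs whose summits lie within a given distance (x axis, bp), for FLAG to CP190 summits and for the summits of the compared sets within the FLAG and the CP190 lists. The FLAG to CP190 curve has its median at 25 bp and lies left of those of the FLAG sets (32 bp) and the CP190 sets (36 bp). It uses summits of the pooled peaks and ends at 100% because the rule allows at most 499 bp. The other curves use single compared sets without that limit, so they are not on a like measure. Between single sets of both antibodies the median was 34 to 36 bp.

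The distance was smaller at strong sites, narrow sites, gene starts and close Pita matches than at the other pairs. Where the FLAG peak ranked among the 100 strongest, the 83 pairs had a median of 15 bp, against 19 bp in the 776 pairs of rank 101 to 1000 and 27 bp in the 3643 pairs below. Pairs with both peaks under 500 bp wide had a median of 20 bp (n = 1616), and pairs with a peak of 1000 bp or more had 30 bp (n = 940). The 382 pairs with the FLAG summit within 250 bp of a gene start had 17.5 bp, against 26 bp in the 4120 other pairs. The 96 pairs with a Pita match at p of 1e-06 in the FLAG window had 16 bp, against 26 bp in the 3898 pairs with no match at p of 1e-04. These groups overlap. Of the 83 pairs among the 100 strongest FLAG peaks, 37 lay at a gene start and 30 had a match at p of 1e-06. The part of each trait was not tested.

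FLAG summits leaned slightly upstream of CP190 summits at gene starts and slightly towards the Pita match, by a few bp, with a wide spread from pair to pair. At gene starts the FLAG summit lay on average 24.9 bp and the CP190 summit 34.0 bp downstream of the start, a FLAG minus CP190 difference of −9.19 bp on average and −2 bp at the median. The SD across the 382 pairs was 74.7 bp, and FLAG lay farther downstream in 158, farther upstream in 206 and on the same base in 18. These pairs were chosen by the FLAG summit alone, which had to lie within 250 bp of the start. The CP190 summit was not so bound, and the upstream lean cannot be told apart from an effect of this choice. Around a Pita match at p of 1e-06, sought from the midpoint of both summits so as to favour neither, the centre of the match was a median of 44 bp from the FLAG summit and 53.5 bp from the CP190 summit in 100 pairs. FLAG was the closer of both in 59 of these pairs, CP190 in 34 and neither in 7, and the median difference was −3 bp. The counts were 106 against 71 in 188 pairs at p of 1e-05, and 320 against 269 in 616 pairs at p of 1e-04. No test of the lean was made, since pairs are not replicates.

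Co-occupied peaks were wider than single-antibody peaks. The median width between the deposited boundaries was 545 bp for co-occupied and 413 bp for FLAG-only peaks in the FLAG list, and 581 bp for co-occupied and 450 bp for CP190-only peaks in the CP190 list. The interquartile ranges overlapped, 379 to 816 bp for co-occupied and 296 to 623 bp for FLAG-only peaks, and 396 to 873 bp for co-occupied and 322 to 706 bp for CP190-only peaks. Peaks of 1000 bp or more made up 15.4% of co-occupied and 9.34% of FLAG-only peaks, and 18.3% of co-occupied and 13.2% of CP190-only peaks. Within a pair, CP190 was the wider in 2570 of 4502 (57.1%), FLAG in 1894, and the widths were equal in 38. Width moves with strength and with the base composition given below, and their part in the difference was not tested.

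The share of co-occupied peaks hardly varied among the 5 large chromosome arms. It ranged from 64.3% on 2L to 66.9% on 3R in the FLAG list and from 66.5% on 3R to 69.9% on 2R in the CP190 list, and the intervals of the arms overlapped. Peak density was 46.7 per Mb on 3L to 56.8 per Mb on 2R for FLAG, and 44.8 per Mb on 3L to 52.8 per Mb on 2R for CP190. The small chromosome 4, which is largely heterochromatic, stood apart. It held 7 FLAG and 12 CP190 peaks, or 5.19 and 8.90 per Mb, of which 2 in each list were co-occupied. Its shares of 28.6% (interval 8.22 to 64.1%) for FLAG and 16.7% (interval 4.70 to 44.8%) for CP190 rest on few peaks. Another 18 peaks in each list lay outside the arms, on unplaced scaffolds, scaffolds of X and Y, or the mitochondrial genome, and 12 in each list were co-occupied.

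Chromosome X differed in the width and fold enrichment of its peaks, not in the share that was co-occupied. Its FLAG peaks had a median width of 643 bp when co-occupied and 474.5 bp when FLAG-only, and its CP190 peaks 683 bp when co-occupied and 527 bp when CP190-only. On the autosomal large arms the corresponding medians were 510 to 540 bp and 377 to 422 bp for FLAG, and 536.5 to 584 bp and 426 to 467.5 bp for CP190. Median fold enrichment on X was 2.322 for co-occupied and 2.104 for FLAG-only peaks, and 2.247 for co-occupied and 2.022 for CP190-only peaks. On the autosomal large arms it was 2.181 to 2.206 and 1.976 to 2.015 for FLAG, and 2.116 to 2.135 and 1.924 to 1.968 for CP190. The part of strength in the width difference was not tested. The median summit distance of a pair was 29 bp on X and 23 to 26 bp on the other large arms. Of the 100 strongest peaks, X held 34 for FLAG and 30 for CP190, and 3R held 31 for FLAG and 24 for CP190.

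**Figure D3:**
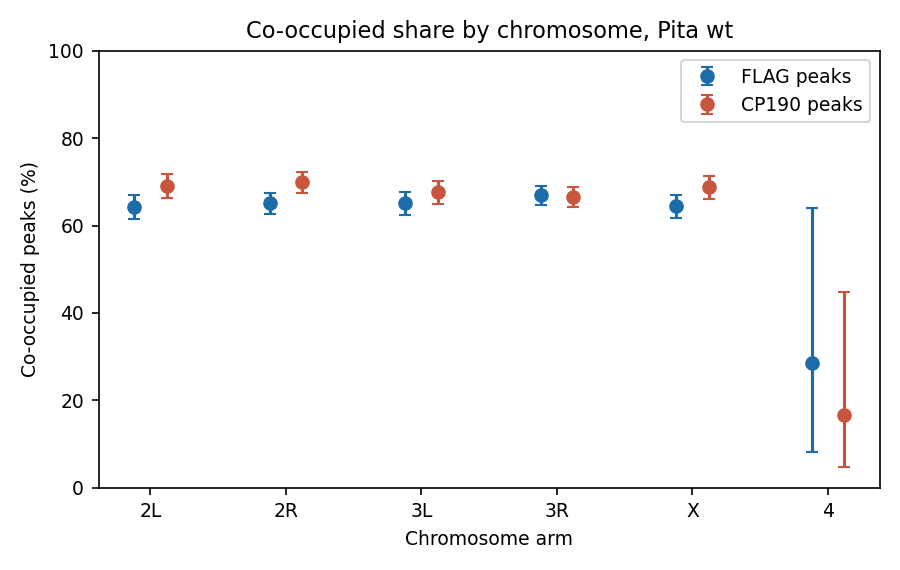
Share of co-occupied peaks (y axis, %) by chromosome arm (x axis) in the FLAG and CP190 lists, with 95% Wilson intervals as bars. All large arms lie between 64.3 and 69.9%, while chromosome 4 is lower with wide intervals, from 7 FLAG and 12 CP190 peaks.

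Most peaks of both antibodies lay inside protein-coding sequence, and the shared ones more so. On the assembled arms, the summit was in a coding exon for 82.8% of 4490 co-occupied and 69.2% of 2393 FLAG-only peaks of the FLAG list, and for 82.6% of 4477 co-occupied and 68.7% of 2091 CP190-only peaks of the CP190 list. The centres of 267236 consecutive 500 bp tiles of the same arms were in a coding exon in 17.1% of cases. Introns held 5.75% of co-occupied and 15.7% of FLAG-only summits, and 5.83% of co-occupied and 12.4% of CP190-only summits, against 42.7% of tiles. Intergenic DNA held 7.62% of co-occupied and 10.4% of FLAG-only summits, and 7.71% of co-occupied and 12.4% of CP190-only summits, against 30.4% of tiles. This position was examined after the first results were seen.

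**Figure D4:**
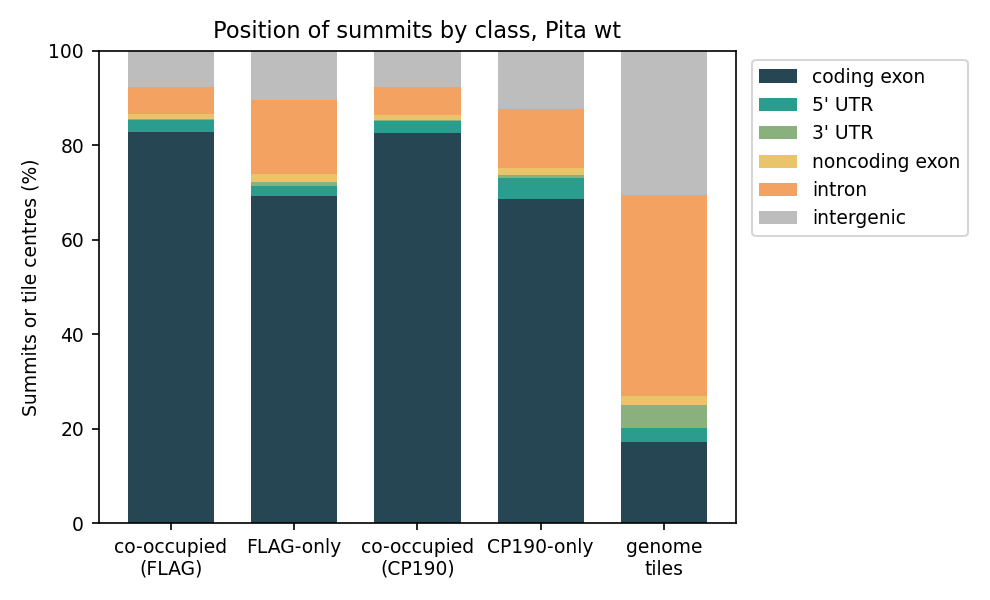
Position of summits (y axis, % of the class, stacked by annotated feature) for co-occupied and FLAG-only peaks of the FLAG list, co-occupied and CP190-only peaks of the CP190 list, and the centres of 500 bp genome tiles. Coding exons take 82.8, 69.2, 82.6 and 68.7% of the peak classes and 17.1% of tiles.

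The windows were also rich in G and C. Median GC content was 57.4% for co-occupied and 54.2% for FLAG-only windows, 57.6% for co-occupied and 54.4% for CP190-only windows, and 41.8% for tiles. Only 9.11% of tiles reached 52.6% GC, the lower quartile of FLAG peaks, and 72.1% of those tiles were centred in a coding exon. The co-occupied share followed GC closely. When FLAG peaks were divided into quartiles of GC, 44.8% of the lowest, 60.7% of the second, 71.3% of the third and 85.2% of the highest quartile were co-occupied, and in the CP190 list 50.4, 63.8, 74.1 and 85.2%. Median peak width went the same way, 337.5 bp in the lowest and 722 bp in the highest quartile for FLAG. GC content, coding position and width moved together, whereas strength ran against coding position at the ends of the lists. In the FLAG list 67.0% of summits were in a coding exon in the strongest 10% and 88.7% in the weakest 10%, and in the CP190 list 55.8% in the strongest and 88.4% in the weakest. Between the ends the share did not rise steadily. It was 78.3% in group 2 and 73.0% in group 4 for FLAG, and 80.9% in group 2 and 75.7% in group 6 for CP190. The part of each in the sharing was not tested.

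The coding summits were spread over many genes. The 3717 co-occupied FLAG summits in coding exons fell in 2891 genes, 597 of which held 2 or more, and the 1655 FLAG-only summits fell in 1480 genes, 148 with 2 or more. The 1437 CP190-only summits fell in 1295 genes, 125 with 2 or more. The genes with the most co-occupied summits have very long coding sequences. dpy, which encodes a giant extracellular matrix protein, held 9 co-occupied and 6 FLAG-only summits and 5 CP190-only summits. Strn-Mlck, a kinase gene related to titin, held 8 co-occupied summits, and Msp300, the gene of a giant nuclear envelope linker protein, and Rbp, that of the RIM-binding protein of synapses, held 6 each.

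Transcription starts were not a hallmark of the shared peaks as a whole. A start lay within 250 bp of 8.51% of co-occupied and 7.90% of FLAG-only summits, and of 8.69% of co-occupied and 10.9% of CP190-only summits, against 7.51% of tile centres. The strongest peaks were different. Of the 100 strongest FLAG peaks 39 lay at a start and 35 in a coding exon, with a median GC content of 46%. Of the 100 strongest CP190 peaks 58 lay at a start and 5 in a coding exon, with a median GC content of 40.7%. Among CP190 peaks below rank 1000, 7.61% lay at a start and 80.6% in a coding exon, and among such FLAG peaks 7.44% and 79.2%.

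The Pita motif was more frequent in co-occupied than in FLAG-only windows, and about equally frequent in co-occupied and CP190-only windows. The matrix of the study was scanned over both strands of each window, and a match was counted at p of 1e-04 for a single position under equal base frequencies. Matches were in 13.5% of co-occupied windows (interval 12.5 to 14.5%) and 8.86% of FLAG-only windows (interval 7.79 to 10.1%). In the CP190 list they were in 13.8% of co-occupied (interval 12.8 to 14.9%) and 13.7% of CP190-only windows (interval 12.3 to 15.3%). Tiles had a match in 5.78%, and tiles of at least 52.6% GC in 9.22%, close to the FLAG-only windows. Most peaks of either antibody had no match, which says only that no such word lay in the window.

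With stricter matches the ratio between co-occupied and FLAG-only windows grew, while the difference in percentage points became smaller. At p of 1e-06, 96 co-occupied FLAG windows (2.14%) and 10 FLAG-only windows (0.418%) had a match, 98 co-occupied (2.19%) and 36 CP190-only windows (1.72%) in the CP190 list, 0.186% of tiles and 0.140% of GC-rich tiles. Of the 106 FLAG peaks with such a match, 96 were co-occupied (90.6%, interval 83.5 to 94.8%), against 64.1% of the FLAG peaks with no match at p of 1e-04. Of the 134 CP190 peaks with such a match, 98 were co-occupied (73.1%, interval 65.1 to 79.9%), against 68.1% of those without. The centre of the match lay a median of 42 bp from the summit in co-occupied FLAG windows and 46 bp in CP190-only windows, against 119.5 bp from the centre in tiles.

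Strength showed where the matches were. Among the 100 strongest peaks, 54 of 83 co-occupied and 3 of 17 FLAG-only windows had a match at p of 1e-04, and 74 of 81 co-occupied and 2 of 19 CP190-only windows. All 30 FLAG and all 35 CP190 peaks of that rank with a match at p of 1e-06 were co-occupied. From rank 101 to 500 the lists parted. In the FLAG list 59 of 343 co-occupied (17.2%) and 5 of 57 FLAG-only windows (8.77%) had a match at p of 1e-04. In the CP190 list 81 of 331 co-occupied (24.5%) and 34 of 69 CP190-only windows (49.3%) had one, and at p of 1e-06 the counts were 32 (9.67%) and 15 (21.7%). These 69 CP190-only peaks had a median GC content of 36.4%, 24 of them lay at a gene start and 5 in a coding exon, whereas the 331 co-occupied peaks of that rank had 59.4% GC, 61 at a start and 236 in a coding exon. The 34 with a match are CP190 peaks at Pita motif words for which the FLAG list has no overlapping window, and the other 35 had no match at p of 1e-04. FLAG signal below the peak threshold is not in the lists.

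**Figure D5:**
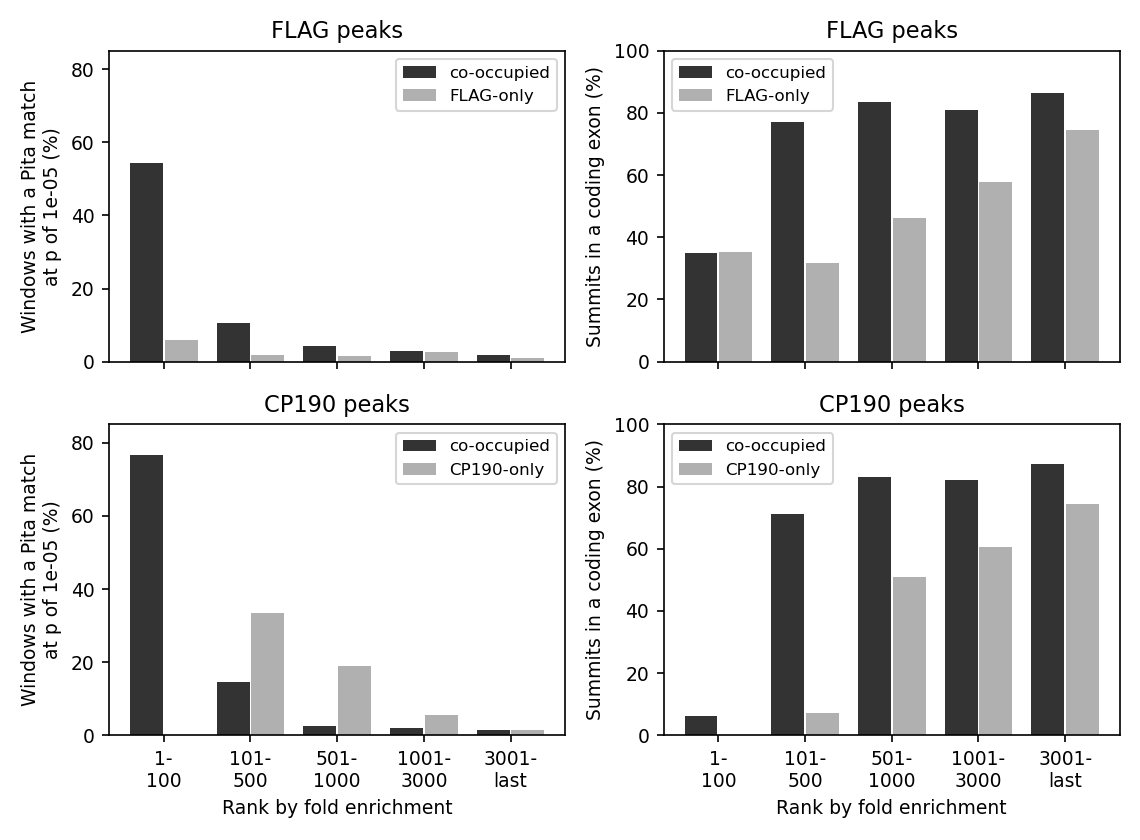
Share of windows with a Pita match at p of 1e-05 (left, y axis in %) and share of summits in a coding exon (right, y axis in %) by rank of fold enrichment (x axis), for FLAG peaks (top) and CP190 peaks (bottom), with co-occupied and single-antibody peaks as separate bars. Of the 100 strongest, 54.2% of co-occupied and 5.88% of FLAG-only windows, and 76.5% of co-occupied and none of 19 CP190-only windows, have a match, while at rank 101 to 500 CP190-only windows have more matches (33.3%) than co-occupied ones (14.5%).

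Other short motifs of insulator and promoter proteins were counted on both strands of the same windows. The DRE word TATCGATA, bound by DREF and overlapping the word CGATA of BEAF-32, was in 0.780% of co-occupied and 0.543% of FLAG-only windows, 0.715% of co-occupied and 1.15% of CP190-only windows, and 1.40% of tiles. CGATA itself was in 38.9% of co-occupied and 40.5% of FLAG-only windows, 38.2% of co-occupied and 43.8% of CP190-only windows, and 44.6% of tiles. GAGAG, a word of GAGA factor, was in 47.2% of co-occupied and 52.1% of FLAG-only windows, 47.5% of co-occupied and 47.3% of CP190-only windows, and 44.8% of tiles. Between classes CGATA differed most in the CP190 list and GAGAG in the FLAG list, each by slightly more percentage points than the Pita match did in the FLAG list. The core promoter word GGTCACAC of Motif 1, to which M1BP binds, was in 2.18% of co-occupied and 1.17% of FLAG-only windows, 2.19% of co-occupied and 1.87% of CP190-only windows, and 1.09% of tiles. TGCATA, from the Su(Hw) site, was in 12.0% of co-occupied and 15.8% of FLAG-only windows, 11.6% of co-occupied and 15.5% of CP190-only windows, and 28.0% of tiles. Base composition differs between peaks and tiles, and its part in these shares was not tested.

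The sites strongest with both antibodies lay close to gene starts and carried the motif. At Atg8a, the gene of a ubiquitin-like protein of autophagosomes, the top peak of both lists shared one summit base (chrX:10768414), 76 bp from the start, with fold enrichment 12.3 for FLAG and 49.4 for CP190. The −log10 p-value there was 154 and 170 in the compared FLAG sets and 1211 and 1134 in the CP190 sets, and the match (p of 7.49e-08) was centred 11 bp from the summit. The summits also coincided at Tlk, which encodes the Tousled-like kinase of chromatin assembly, with fold enrichment 7.85 for FLAG and 28.0 for CP190 and a match (p of 1.13e-07) 44 bp away. CP190 enrichment was the higher at both sites, but the lists were scaled separately and only ranks within a list are compared.

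At cib, which encodes an actin-binding protein of the thymosin family, the summits were 12 bp apart, with fold enrichment 8.68 for FLAG and 27.6 for CP190 and the closest match to the matrix of all named sites (p of 2.58e-10). MCU, the mitochondrial calcium uniporter gene, had summits 15 bp apart, 6.91-fold for FLAG and 19.1-fold for CP190, 477 bp from the start. ATPsynC, the gene of the c subunit of ATP synthase, had summits 11 bp apart, 7.58-fold for FLAG and 17.6-fold for CP190. TER94, the gene of the AAA ATPase known as VCP, had summits 2 bp apart in the exon of a long noncoding RNA, 6.23-fold for FLAG and 23.3-fold for CP190, and a match at p of 9.30e-06. The −log10 p-values of the compared sets at these 4 sites were 53.9 to 101 for FLAG and 301 to 528 for CP190, and no site was strong in only one set.

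The strongest FLAG-only peaks lay in introns, coding exons and intergenic DNA, none within 250 bp of a gene start. The first was in an intron of lab, a homeotic gene of the head (chr3R:6672500-6673119), with fold enrichment 6.58, rank 10, and the nearest CP190 summit 5356 bp away; it had a match at p of 9.66e-06. The −log10 p-value was 65.4 and 68.6 in the compared FLAG sets. Next came an intron of kek5, the gene of a leucine-rich repeat membrane protein (chrX:19453010-19453305), with fold enrichment 5.21. The coding region of Col4a1, a collagen IV chain of basement membranes, followed with fold enrichment 4.83 in a peak of 5368 bp. The remaining named sites had fold enrichment 4.62 to 4.77. They were a site 626 bp from the start of Ipp, the gene of inositol polyphosphate 1-phosphatase, a coding exon of Rdl, a GABA receptor subunit gene, and an intron of Bx, a LIM-only protein gene. None of these 5 had a match at p of 1e-04, and the nearest CP190 summit was 1025 bp away at Ipp and 23534 bp away at Bx, the range of the 5.

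The strongest CP190-only peaks lay outside coding exons, in DNA of lower GC content than most peaks. The first lay 737 bp from the start of unc-5, a netrin receptor gene (chr2R:15339474-15339950), with fold enrichment 9.63, rank 37, and −log10 p-value 108 and 106 in the compared CP190 sets. The nearest FLAG summit was 1786 bp away. The others lay between genes near CG34435, CG17129 and upd2, a JAK/STAT ligand gene, in an intron of CG43658, and in an intron of EcR, the ecdysone receptor gene, with fold enrichment 7.22 to 9.09. GC content over the 6 was 33.6 to 46.4%, and the nearest FLAG summit was 823 bp away at CG34435 and 46555 bp away at CG43658, the range of the 6. None had a match at p of 1e-04.

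Some co-occupied sites ranked far apart in the lists. ZIPIC, itself the gene of a ZAD zinc-finger architectural protein, had a coding peak at rank 66 of the FLAG list and rank 6234 of the CP190 list, with fold enrichment 3.96 for FLAG and 1.71 for CP190 and summits 384 bp apart. The −log10 p-value was 38 and 37.7 in the FLAG sets and 3.81 and 6.35 in the CP190 sets. Coding exons of mspo, Aef1 and sens-2, the last a zinc-finger gene, had FLAG ranks of 548 to 1126 and CP190 ranks of 6016 to 6555. In the other direction, zip, the gene of the nonmuscle myosin heavy chain, had a peak in its 5′ untranslated region at FLAG rank 6181 and CP190 rank 148, with fold enrichment 1.81 for FLAG and 3.83 for CP190 and summits 444 bp apart. An intergenic site at CG30098 and coding exons of HERC2, a ubiquitin ligase gene, and Met, a juvenile hormone receptor gene, had FLAG ranks of 6771 to 6861 and CP190 ranks of 617 to 870. The rule chose these sites for their unequal ranks, and the values only describe them.

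Single-antibody peaks with a close match to the Pita motif were weaker than the co-occupied ones. Under FLAG-only peaks the strongest 4 with a match at p of 1e-06 were at Tmhs, CG13108, CG32812 and CG16964, with fold enrichment 2.52 to 2.70 and ranks 759 to 1238. The match at the site near CG13108 (p of 3.40e-08) was centred 8 bp from the summit, and that in Tmhs (p of 2.13e-07) 31 bp away. Under CP190-only peaks they were near CG10011, lobo and CG6693 and in a coding exon of l(3)mbn, with fold enrichment 4.27 to 4.70 and ranks 103 to 126. The match near lobo (p of 9.16e-09) was centred 41 bp from the summit and that near CG6693 (p of 1.14e-07) 43 bp away. The nearest FLAG summit was 2360 to 19785 bp from these 4 CP190 summits. The match p-values of these single-antibody sites lay within the range of those at the 6 strongest shared sites. The single-antibody sites were chosen for a match at p of 1e-06 and the shared sites by rank alone. Their upper limit was thus set by the rule, and the comparison cannot show whether the matches are alike.

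The genes of both proteins had peaks nearby, the strongest being a CP190 peak in pita. Within 1 kb of pita lay 4 FLAG and 2 CP190 peaks. The pair in an intron of pita, 518 bp from the start, had summits 7 bp apart, with fold enrichment 2.40 for FLAG (rank 1704) and 4.67 for CP190 (rank 104), and one coding pair had summits 2 bp apart. Near Cp190 lay 1 pair, with fold enrichment 1.76 for FLAG and 2.13 for CP190 in a coding exon of the neighbour Zip88E. Near Ubi-p63E, whose promoter drives the transgene, lay no FLAG peak and 1 CP190 peak of fold enrichment 1.81. Sequence of a transgene that also occurs at its own locus cannot be told apart from that locus in aligned reads.

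The widest peaks covered long coding regions, several of them on X, and were chosen after their values were seen. HERC2 carried the widest co-occupied peak, 5750 bp for FLAG and 5773 bp for CP190, with summits 43 bp apart and fold enrichment 2.73 for FLAG and 2.63 for CP190. The coding sequence of zld, the gene of the pioneer factor Zelda, had 4896 bp for FLAG and 4853 bp for CP190. Over CG11122 the widths parted, with FLAG peaks of 5578 and 5182 bp and CP190 partners of 1937 and 2094 bp. The widest CP190-only peak, 6185 bp, lay over uif, a transmembrane protein gene. The nearest FLAG summit was 873 bp from its summit, outside the window rule but inside the deposited boundaries of this peak.

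Among gene groups, cytosolic ribosomal protein genes were at shared summits more often than genes in general. Of 18358 annotated genes, 424 (2.31%) had a start within 250 bp of a co-occupied FLAG summit, 202 (1.1%) of a FLAG-only summit and 248 (1.35%) of a CP190-only summit. Of 86 cytosolic ribosomal protein genes, 9 (10.5%) had a co-occupied summit at the start. They were RpL7A, RpL17, RpL22, RpL23, RpL30, RpL37A, RpS9, RpS15Aa and RpS28a. A FLAG-only summit was at none of the 86 and a CP190-only summit at 1, RpL3. Overlapping genes can share a start, the lists were drawn up with results of these data known, and the difference from all genes was not tested.

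The other groups held few or none. Of 21 architectural protein genes none had a co-occupied or FLAG-only summit at the start and 1, BEAF-32, had a CP190-only summit. The 6 cohesin, 32 proteasome and 32 small nuclear RNA genes had none of any class. Of 73 mitochondrial ribosomal protein genes, mRpL13 had a co-occupied and mRpS22 a FLAG-only summit, and of 25 replication and cell cycle genes E2f1 had a FLAG-only summit. Of 27 segmentation and homeotic genes, Abd-B and prd had a co-occupied summit, Abd-B and wg a FLAG-only one at a start, and eve a CP190-only one. Small nucleolar RNA genes, which often lie in introns of other genes, had 8 co-occupied, 1 FLAG-only and no CP190-only summit among 269, and tRNA genes had 3 co-occupied, 1 FLAG-only and 1 CP190-only summit among 312. These counts are close to the background of all genes, or too small to be read against it.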

How the data were processed

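The authors trimmed the reads with cutadapt, aligned them to dm6 with Bowtie 2, removed duplicates with Picard, and used MACS2 for peak calls relative to the preimmune control. Peaks with p below 0.01 entered the IDR (irreproducible discovery rate) pipeline, and the optimal set at an IDR of 0.05 was deposited with the replicates pooled. The sources differ on sequencing mode, collection time and whether the control was preimmune serum or nonspecific IgG. The fold enrichment in each deposited list is the authors' ratio over the control. The deposited −log10 p-value is that of the pooled peak. The deposited score of each of the 2 compared peak sets is on the same scale, and is given as a −log10 p-value in the text. Read depth was not given in the lists.

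Here, 1-based summits were paired as described. Starts and features came from Ensembl release 115 (18358 genes, 35694 transcripts), and a site is called by its nearest start, or by its host gene where stated. The Pita matrix came from the study's supplement, where it was read from page images. Its 21 positions sum to 1 within 7.72e-04 when C and G have a base frequency of 0.195, and its best score is 19.1. No test was made. Sites were named by fixed rules: the 6 strongest pairs by the weaker of both ranks, the 6 strongest peaks of each single-antibody class, 4 pairs of unequal rank each way, the 4 strongest windows per class with a match at p of 1e-06, and peaks within 1 kb of pita, Cp190 and Ubi-p63E. The members, gene lists and rules were chosen with earlier results of these data known. The symbol h was not matched. The mutant lists were only counted. Alternatives changed the window, boundaries, overlap, peak threshold, start distance and motif threshold. Overlap was tested on simulated data, where 2000 of 2000 pairs were recovered, and so was the scan, with 200 of 200 planted best-scoring words. Calculations ran in Python 3.11.15 with scipy 1.17.1, pandas 2.3.3 and numpy 2.4.6.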

Additional observations from a re-analysis of the deposited data

How the results depend on the processing

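No paired analysis was possible because the lists pool the replicates, and leaving out each replicate was not run for the same reason. Of 75 recomputed values none changed sign where the interval excluded 0, and 29 moved by more than 1.5 times (counts) or beyond the 95% interval of the main value. The co-occupied count was 4210 to 4831 for FLAG and 4210 to 4762 for CP190 with other windows, boundaries or overlaps. With both lists cut to the 3000 peaks of the highest −log10 p-value it was 1904 in each, or 63.5%. With both cut to the 1000 peaks of the highest fold enrichment it was 559 in each, or 55.9%. That alternative was chosen after seeing the data, like all coding-exon alternatives. Fewer peaks enter in both settings, and the share was also below the 65.2% and 68.2% of the full lists. The median summit distance was 28 bp with 500 bp windows, 23 and 22 bp with the 5000 and 3000 lowest p-values, and 17 bp with the 1000 highest folds. The excess width of co-occupied over FLAG-only peaks was 86.5 bp with 100 bp windows, 159 bp with deposited boundaries, 105.5 bp with 3000 peaks and 84 bp with 1000, and over CP190-only peaks 64.5 bp, 158 bp and, with 1000 peaks, 95 bp. The excess at gene starts was 3.18 percentage points over FLAG-only with 3000 peaks and 7.97 with 1000, and −4.19 over CP190-only with 1000. The excess with a Pita match over FLAG-only was 12.4 percentage points with 1000 peaks, 2.61 at p of 1e-05, 1.72 at p of 1e-06 and 6.42 within extended boundaries, and −2.52 over CP190-only with 1000 peaks, where the main difference was 0.0808. The excess in coding exons with 500 bp windows, 3000 and 1000 peaks was 16.8, 10.5 and 4.51 percentage points over FLAG-only, and 16.7, 11.4 and 18.4 over CP190-only. The cause of these moves was not tested. The lists hold no depth, and what lies below the peak threshold is not seen.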
